A study of Mus musculus with 22 samples.

Results

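Genes of the extracellular matrix and of fibrosis were followed in mouse hearts after deletion of *Ronin* (*Thap11*, a zinc finger regulator of transcription). The set held 40 genes, chosen by name: collagens, adhesive and matricellular proteins, proteoglycans, elastic fiber proteins, proteases with their inhibitors, crosslinking and folding enzymes, and growth factors with a receptor. A probe was found for 37 of them among the 19057 genes with a probe, and *Col6a3*, *Fbn1* and *Loxl2* were not analysed here. Each gene was read from its brightest probe. Illumina whole-genome arrays measured total RNA of C57BL/6 hearts in 22 arrays of 10 groups, and all values below are probe intensities on a linear scale unless a log2 scale is named. Controls and knockouts both carried a Cre driver: controls had 1 floxed *Ronin* allele (RoninloxP/+) and knockouts had only floxed alleles (RoninloxP/loxP). Hearts with *Nkx2.5::Cre*, which acts in cardiac progenitors, were taken at E9.5 (2 control and 2 knockout arrays, each from a pool of 10 hearts) and at E11.5 (3 and 3). Hearts with *αMHC::Cre*, which acts in cardiac myocytes, were taken at 3 ages, E11.5, P0 and 6 weeks (2 and 2 arrays each). For the *αMHC* knockouts the sample records name *Nkx2.5::Cre* in the genotype field and MHC in the titles, and the titles were followed.

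The extracellular matrix is the scaffold of the heart. Fibrillar collagens give it tensile strength, elastin gives it recoil, basement membranes wrap myocytes and vessels, and matricellular proteins and transforming growth factors carry signals between matrix and cells. In the heart most of it is made by fibroblasts and cushion mesenchyme rather than by the myocytes in which *αMHC::Cre* is active, and its buildup after injury is called fibrosis.

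*Thap11* intensity lay below every control in all knockout arrays, at 50.9% to 88.2% of the control mean in embryonic and newborn hearts. At 6 weeks the controls read 1456 and 1438 and the knockouts 290 and 772, and knockout 1 kept 20.0% and knockout 2 kept 53.4% of the control mean. *Xist*, which marks female samples, and the Y-linked *Eif2s3y* showed that sex went with genotype in *αMHC* hearts at E11.5 (*Xist* 1888 and 1989 in controls, 49.9 and 54.9 in knockouts). At 6 weeks *Xist* was low in both arrays numbered 1 (57.5 and 58.5) and high in both arrays numbered 2 (556 and 689), so each number joined a control and a knockout of 1 sex. In the other comparisons *Xist* overlapped between the groups. Its log2 fold change was 0.21 in *Nkx2.5* hearts at E9.5, -1.65 at E11.5 and -1.52 in *αMHC* hearts at P0. Those of *Eif2s3y* were -0.55, 0.91 and 1.62, so sex may not have been balanced there. Cardiac myocyte markers were bright in all groups. Their summed intensity was higher in *αMHC* knockouts at E11.5 (195254 to 198829 in controls, 204430 to 211568 in knockouts). The same held at 6 weeks (197226 to 225124 against 240431 to 252432), while the sums overlapped in the other comparisons. Without overlap, 2 of the 9 markers were higher and 2 lower at that E11.5 comparison, and 4 higher and 1 lower at 6 weeks. The arrays of a group at 6 weeks thus came from different animals, and at E9.5 each replicate was a pool of 10 hearts. For the other groups nothing states that arrays came from separate animals. The p-values measure the spread between these arrays, and their small number limits the precision.

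At 6 weeks 34 of the 35 members tested read higher in *αMHC*-driven knockout hearts than in controls, and 4 passed the test. Genes with a probe brighter than the median probe of these arrays were tested. The median log2 fold change of the members was 0.74, against 0.02 over all genes tested, of which 53.0% were above 0. The change passed an adjusted p of 0.05 in limma for 4 members, all higher (*Timp1*, *Col8a1*, *Col14a1* and *Tgfb2*), where 0.717% of all 11708 genes tested were called higher and 1.05% lower. No member was called lower. Before adjustment p was under 0.05 for 17 members, all of them higher, where 5.52% of all genes were called higher by that rule. Both knockouts lay above both controls for 28 of the 35, where 19.6% of all genes did so. Since whole hearts were measured, more cells of a type and more RNA per cell cannot be told apart. The calls depended on single arrays: 0 members were called without control 1, 1 (*Timp1*) without knockout 1 and 12 without knockout 2. Over all genes 84 higher and 123 lower calls became 1 higher and 8 lower when control 1 was omitted. Omitting knockout 1 left 29 higher and 37 lower, and omitting knockout 2 gave 393 higher and 358 lower.

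**Figure D1:**
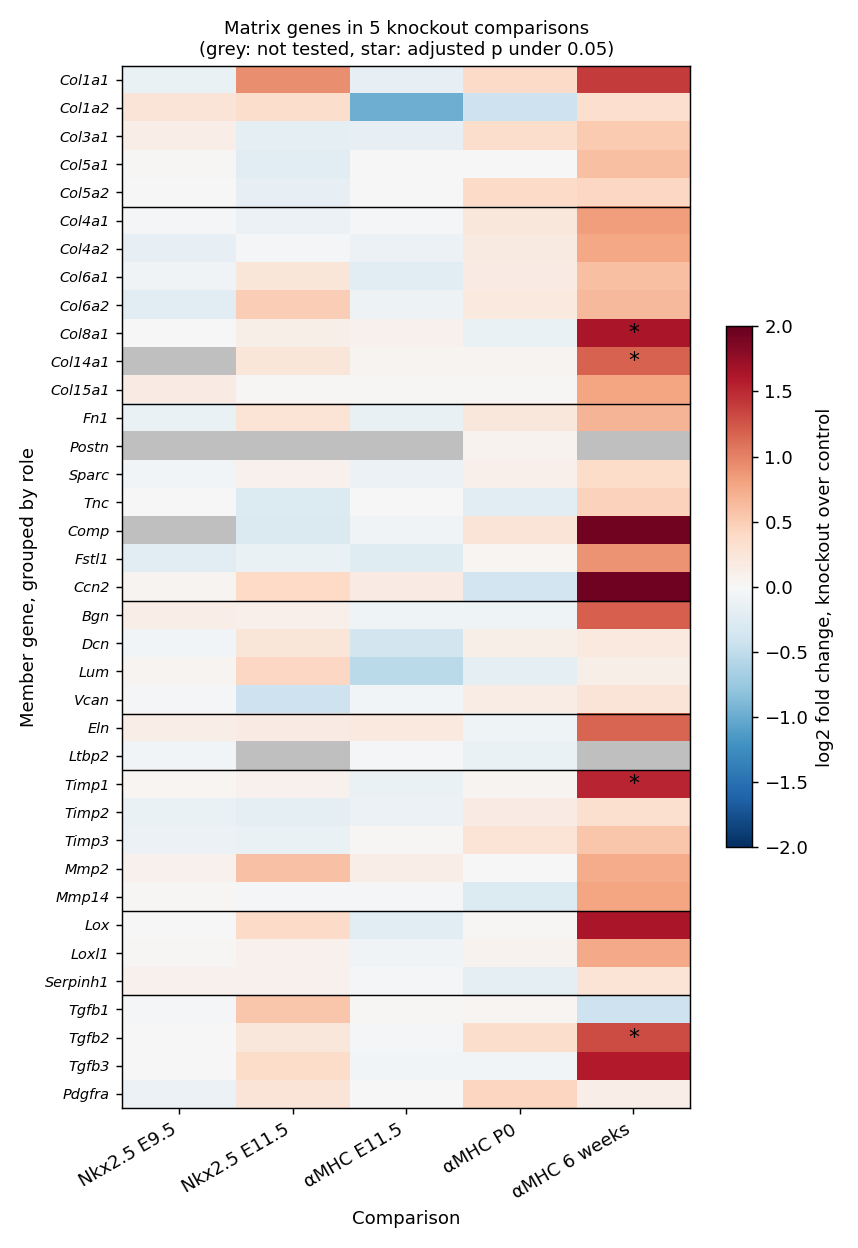
Heat map of the log2 fold change of knockout over control (color) for the 37 measured members (rows, by role) in the 5 comparisons (columns), with stars where the adjusted p was under 0.05 and grey where the probe was too dim to test. The column at 6 weeks is red for 34 of 35 tested members and holds all 4 stars.

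*Timp1*, a secreted inhibitor of matrix metalloproteinases, had the lowest p of the members. At 6 weeks it read 296 and 434 in controls against 1231 and 870 in knockouts. Both knockouts stood above both controls, by 1.53 ± 0.23 on the log2 scale (SE, 2.89-fold, limma adjusted p = 0.0010). A second *Timp1* probe gave a log2 difference of 1.51. *Timp1* is X-linked, and the log2 difference within the male arrays was 2.06 and within the female arrays 1.01. Left without control 1, its adjusted p was 0.12.

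*Col8a1*, a short-chain collagen of vessels and valves, read 304 and 515 in controls and 1854 and 824 in knockouts. The groups did not overlap, and knockout 1 stood highest (log2 fold change 1.64 ± 0.34, 3.12-fold, adjusted p = 0.014 in limma). *Col14a1*, a fibril-associated collagen, read 102 and 162 against 299 and 284, with both knockouts close together (1.18 ± 0.24, 2.27-fold, adjusted p = 0.014 in limma). *Tgfb2*, a ligand of the transforming growth factor family, read 152 and 249 against 644 and 362 (1.31 ± 0.30, 2.48-fold, adjusted p = 0.029 in limma). All 3 lost their calls without control 1 (adjusted p from 0.57 to 0.92) and without knockout 1 (0.10 to 0.47).

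**Figure D2:**
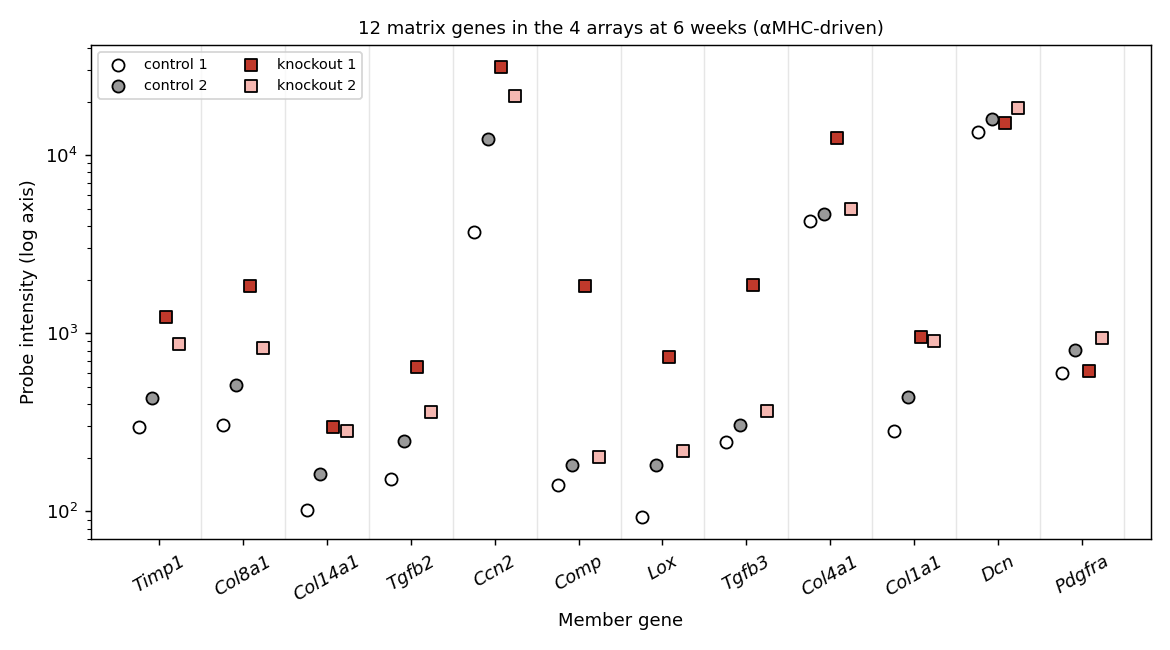
Probe intensity (log axis) of 12 members in the 4 arrays at 6 weeks, with circles for controls and squares for knockouts. For *Comp*, *Lox*, *Tgfb3* and *Col4a1* knockout 1 stands far above the other arrays, while *Dcn* and *Pdgfra* overlap between groups.

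Among the members without overlap that missed the threshold, the 4 largest log2 fold changes were those of *Ccn2*, *Comp*, *Lox* and *Tgfb3*. *Ccn2*, a matricellular protein induced by transforming growth factor and by stretch, read 3721 and 12269 in controls and 31250 and 21600 in knockouts (log2 fold change 1.94 ± 0.52, adjusted p = 0.067 in limma). The controls themselves were over 3-fold apart. *Comp*, a pentameric matricellular protein that binds collagen, read 140 and 183 against 1854 and 201 (1.93 ± 0.63, adjusted p = 0.16 in limma). The difference lay almost wholly in knockout 1. *Lox*, which crosslinks collagen and elastin, read 93.0 and 182 against 737 and 219 (1.63 ± 0.48, adjusted p = 0.11 in limma). *Tgfb3*, another ligand, read 246 and 306 against 1866 and 365 (1.59 ± 0.46, adjusted p = 0.093 in limma). In these 3 genes knockout 2 was only slightly above the higher control.

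By role, the 7 basement membrane and other collagens tested at 6 weeks were all above controls without overlap, with a median log2 fold change of 0.79. Over all genes tested 19.6% were above controls without overlap, and this share applies to each role below. *Col4a1* and *Col4a2*, the paired chains of the basement membrane network, read 4252 and 4690 against 12575 and 5018, and 3368 and 4172 against 8568 and 4775. Knockout 1 was again the high array for both. The microfibrillar *Col6a1* (1687 and 1768 against 2647 and 2582) and *Col6a2* (339 and 350 against 542 and 541) had knockouts that were nearly equal. *Col15a1* did likewise (437 and 681 against 941 and 945). Other probes above the median gave smaller log2 differences. A second *Col6a2* probe gave 0.07, against 0.65 for the brightest. Those of *Col6a1* gave 0.36 and 0.01, against 0.60 for the brightest. Of the 5 fibrillar collagens, whose median was 0.52, none was called. *Col1a1* read 282 and 441 against 955 and 908 (1.40 ± 0.68, adjusted p = 0.49 in limma). *Col5a1* and *Col5a2* also did not overlap, and *Col1a2* and *Col3a1* overlapped between groups.

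Among adhesive and matricellular proteins 6 were tested, 5 of them without overlap (median 0.79). *Fstl1*, a secreted glycoprotein, read 469 and 668 against 1309 and 832, and fibronectin (*Fn1*) 159 and 181 against 356 and 206. *Sparc*, a collagen-binding protein, read 5399 and 4973 against 9037 and 4924, so its groups overlapped through knockout 2. *Tnc* was dim throughout (75.1 to 125). *Postn*, a marker of activated fibroblasts, was too dim to test at 62.6 and 61.1 against 79.0 and 76.3.

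The small proteoglycans differed among themselves. *Bgn*, which is X-linked, read 2971 and 5922 against 10566 and 8649 (1.19 ± 0.39, adjusted p = 0.17 in limma). *Dcn* (13455 and 16060 against 15157 and 18468) and *Lum* (1206 and 2116 against 1093 and 2748), which both regulate collagen fibril width, overlapped between the groups. *Vcan*, the large proteoglycan of cushions, was dim (79.5 to 96.9). Elastin (*Eln*) read 278 and 453 against 1166 and 542, and the elastic fiber protein *Ltbp2* was too dim to test.

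All 5 proteases and inhibitors were above controls without overlap (median 0.74). *Mmp2*, a gelatinase, read 1239 and 1746 against 2313 and 2604, and its membrane activator *Mmp14* 360 and 463 against 754 and 657. *Timp2* and *Timp3* had log2 fold changes of 0.32 and 0.55. The crosslinking enzyme *Loxl1* read 1553 and 1541 against 2880 and 2357, and the collagen chaperone *Serpinh1* 7155 and 9557 against 9916 and 10050. *Tgfb1* was the only tested member below controls (603 and 410 against 396 and 351, -0.42 ± 0.40), and *Pdgfra*, a receptor of mesenchymal cells, overlapped (595 and 809 against 612 and 937).

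The 2 knockout hearts at 6 weeks differed in degree. Within the male arrays, knockout 1 over control 1, the median log2 difference of the 35 members was 0.90 and 17 members were over 2-fold higher, where 3.71% of all genes were. Within the female arrays the median was 0.32 and 2 members, *Col1a1* and *Timp1*, were over 2-fold higher, where 0.307% of all genes were. In each pair 33 of 35 members were above 0. Knockout 1, with the lower *Thap11*, was over 2-fold above knockout 2 in 6 members, where 2.02% of all genes were. Control 2 was above control 1 in 30 members. Sex, the array and the remaining *Thap11* level cannot be told apart in these pairs.

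**Figure D3:**
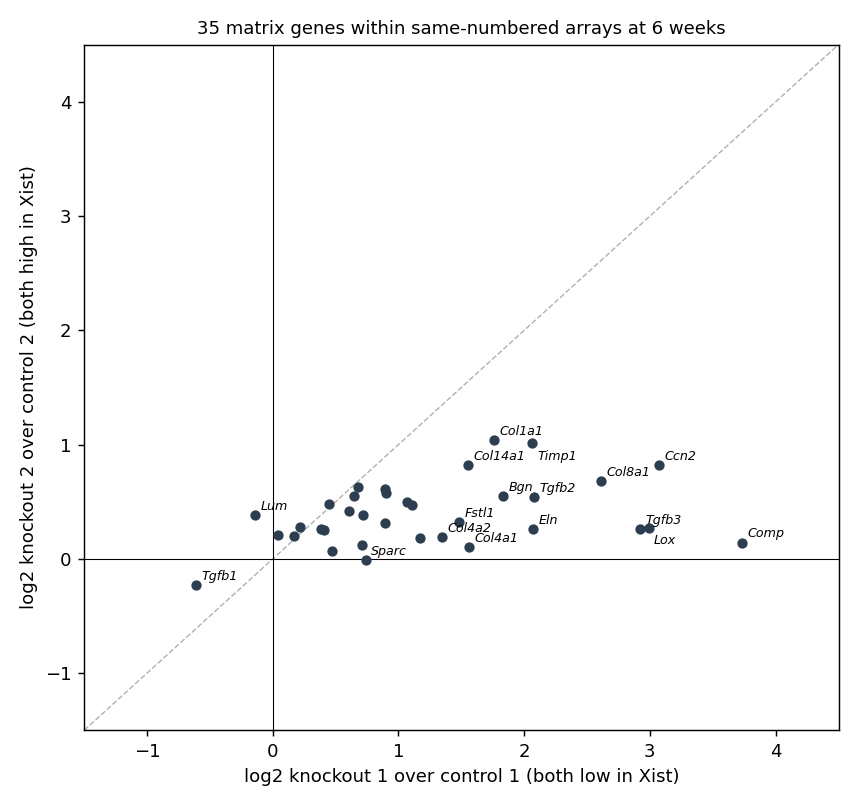
Log2 difference of knockout over control for the 35 tested members within the arrays numbered 1 (x axis, low in *Xist*) and numbered 2 (y axis, high in *Xist*) at 6 weeks, with a dashed line of equality. Most points lie to the right of the line and above 0, and *Comp*, *Lox* and *Tgfb3* lie far right but close to 0 on the y axis.

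Markers of other cells moved unevenly with these genes, and their part in the result was not tested. Of 8 fibroblast markers 7 were above the median probe at 6 weeks, and their summed intensity over the list was 2998 to 3529 in controls and 3581 to 3666 in knockouts. *Tcf21* (254 and 276 against 333 and 258), *Thy1* (419 and 414 against 338 and 365) and *Dpt* (1227 and 1475 against 668 and 1500) were not higher in both knockouts, and only *Meox1* (291 and 423 against 1389 and 617) was. Of the macrophage markers with a probe, 7 were bright and 0 were higher without overlap, with sums of 7721 to 7928 in controls and 5626 to 9296 in knockouts. Of the endothelial markers 1 of 8 was. The smooth muscle sum was 33725 to 34705 against 57014 to 93386. The largest reading named here was that of *Acta2*, the actin of smooth muscle and of activated fibroblasts. It read 13548 and 16365 against 58946 and 35637 (log2 fold change 1.62 ± 0.19, adjusted p = 0.00016 in limma). *Tagln* and *Myh11* had log2 fold changes of 0.18 and 0.38. Among the 5 smooth muscle markers tested, 4 were above 0, with a median of 0.38. Without overlap 2 were higher and 0 lower, where 19.6% of all genes were higher. At an unadjusted p under 0.05 in limma 2 were higher. Of the 5 valve and cushion markers above the median probe, 3 were higher and 1 was lower without overlap, with sums over the list of 1381 to 1413 in controls and 1554 to 3189 in knockouts. The log2 fold change was 1.48 for *Scx* (258 and 377 against 1580 and 480), a factor of tendon and valve cells, 0.95 for *Sox9*, 0.13 for *Msx1* and -0.24 for *Nfatc1*, and none of these 4 was called.

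Of 53 other matrix genes tested at 6 weeks, none passed the threshold in either direction in limma, 39 had a log2 fold change above 0 (73.6%) and their median was 0.24. Without overlap 17 were higher and 4 lower, where 2298 and 2094 of all 11708 genes were. Without adjustment, p was under 0.05 in limma for 7 that were higher and 1 that was lower, where it was for 646 and 592 of all genes. The matrix proteins among them had a median of 0.39, the basement membrane list 0.24, the list of matrix synthesis and turnover 0.21 and the transforming growth factor pathway list 0.13.

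Promoter sequences are shown for 3 of the 4 called members (*Timp1*, *Col8a1* and *Tgfb2*) and for the collagen IV pair, since that pair is transcribed in opposite directions from 1 short region. RefSeq windows of GRCm38.p6, from 250 bases before to 50 after a gene's start, were matched for 26 of the 40 members (29 windows), and *Col14a1* was not matched. The capitals mark the CCAAT box, the GC box (GGGCGG) and the TATA box (TATAAA) on either strand (a site on the other strand appears as its reverse complement). The *Timp1* window is chrX:20869916-20870215 on the plus strand, that of *Col8a1* chr16:57754688-57754987 on the minus strand and that of *Tgfb2* chr1:186705940-186706239 on the minus strand. The windows of *Col4a1* and *Col4a2* share chr8:11312777-11312854, 78 bases that are shown on the plus strand. They hold both gene starts used for the windows, 21 bases apart, and the transcripts overlap between these starts.
Timp1: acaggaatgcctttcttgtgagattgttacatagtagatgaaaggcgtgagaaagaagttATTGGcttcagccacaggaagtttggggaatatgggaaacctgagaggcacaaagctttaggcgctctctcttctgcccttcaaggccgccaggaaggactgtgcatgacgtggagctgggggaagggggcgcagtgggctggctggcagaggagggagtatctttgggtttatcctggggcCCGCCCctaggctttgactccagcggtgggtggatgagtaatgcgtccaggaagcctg
Col8a1: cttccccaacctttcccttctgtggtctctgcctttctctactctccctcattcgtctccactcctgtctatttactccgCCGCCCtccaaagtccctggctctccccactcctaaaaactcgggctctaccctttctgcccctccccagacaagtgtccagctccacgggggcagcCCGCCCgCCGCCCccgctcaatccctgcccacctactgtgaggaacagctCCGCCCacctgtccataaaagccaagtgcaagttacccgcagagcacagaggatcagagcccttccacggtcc
Tgfb2: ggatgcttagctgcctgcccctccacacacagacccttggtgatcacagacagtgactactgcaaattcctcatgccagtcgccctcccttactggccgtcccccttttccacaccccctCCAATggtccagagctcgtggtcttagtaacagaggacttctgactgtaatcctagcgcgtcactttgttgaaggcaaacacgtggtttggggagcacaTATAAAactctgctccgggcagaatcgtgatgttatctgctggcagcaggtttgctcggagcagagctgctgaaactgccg
Col4a1 and Col4a2: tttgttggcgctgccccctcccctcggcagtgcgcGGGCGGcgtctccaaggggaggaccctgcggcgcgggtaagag

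GGGCGG was found in 20 of the 29 windows of members (69.0%) and in 35.7% of all 32851 windows. *Col8a1* held it at 4 places and the collagen IV pair had 1 copy within the shared bases. CCAAT was found in 9 of the 29 windows and in 37.4% of all, TATAAA in 17.2% and 13.6%, and TGAGTCA in 1 window (*Col6a1*, 3.45% against 5.20%). None of the marked sites overlapped another. The Ronin motif that the study derived from ChIP-seq of embryonic hearts was found in 0 of 29 windows and in 2.27% of all. These matches describe the letters in the windows only.

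In *αMHC* hearts at P0 no member was called by limma, where 0% of 11779 genes were. All 37 members were tested, 26 had a log2 fold change above 0 (70.3%, against 49.1% of all genes) and the median was 0.05. Some markers of other cells also read higher, and their part was not tested. Of the epicardial markers 4 of 5 were above 0 and 3 were higher without overlap (sums of 5464 to 5942 in controls and 6827 to 7254 in knockouts), and 6 of 7 endothelial markers were above 0 (27242 to 28414 against 27610 to 29749). At an unadjusted p under 0.05 there were 0 members, where 4.21% of all genes were, and 10 members did not overlap, where 30.3% of all genes did not. The largest without overlap was *Pdgfra* (1287 and 1277 against 1423 and 2086, 0.43 ± 0.27 on the log2 scale), followed by *Col1a1* (3494 and 3847 against 4209 and 5426). *Timp3* read 5600 and 6411 against 7171 and 7317, *Mmp14* 5250 and 4849 against 4801 and 3638, and *Comp* 380 and 395 against 469 and 456. For each of them the adjusted p was 1.0. *Timp1* at P0 read 1617 and 1504 in controls against 1674 and 1558 in knockouts, and these groups overlapped.

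The effect of knockout at 6 weeks minus that at P0 was tested itself. *Timp1* was the member called (1.48 ± 0.29 on the log2 scale, adjusted p = 0.042 in limma), where 0.100% of 10956 genes were called higher and 0.155% lower. This gene is X-linked. Each number joined arrays of 1 sex at 6 weeks, while at P0 *Xist* differed between the groups by -1.52 on the log2 scale, with overlap. Before adjustment p was under 0.05 for 13 of 35 members, all higher, where 4.16% of all genes were, 33 had a difference above 0 and the median was 0.68, against 0.02 over all genes. *Ccn2* (2.32 ± 0.65, adjusted p = 0.22), *Col8a1* (1.79 ± 0.43, adjusted p = 0.11), *Col14a1* (1.14 ± 0.31, adjusted p = 0.19) and *Mmp14* (1.06 ± 0.28, adjusted p = 0.19) had the next lowest p-values in limma. The *Timp1* call was lost when any 1 of 6 of the 8 arrays was left out, and held only without control 2 or knockout 2 at 6 weeks.

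**Figure D4:**
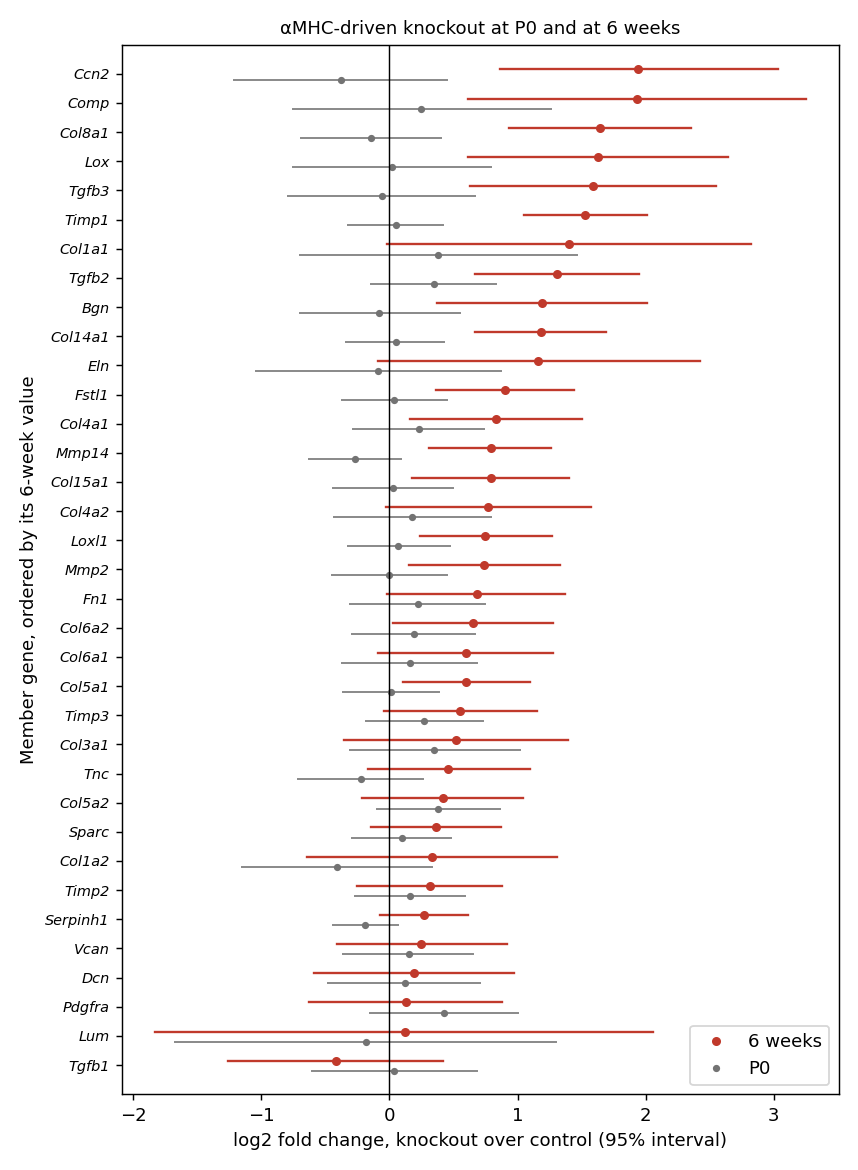
Log2 fold change of knockout over control with its 95% interval for the 35 members tested at both ages in *αMHC* hearts (red, 6 weeks; grey, P0), ordered by the 6-week value. The grey points lie around 0 and the red points lie to the right of 0 for 34 members.

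Of 36 members tested in *αMHC* hearts at E11.5, 0 were called by limma, where 0.00840% of 11910 genes were. At an unadjusted p under 0.05 there was 1 member, where 4.39% of all genes were, and 11 members did not overlap, where 32.5% of all genes did not. Only 9 of 36 members were above 0 and the median was -0.06, against -0.01 over all genes. Of 6 valve and cushion markers 0 were above 0 and 4 were lower without overlap (sums of 10021 to 10419 in controls and 9468 to 10013 in knockouts). Of 8 endothelial markers 1 was above 0 and 3 were lower without overlap (19857 to 20187 against 17807 to 18381). All 7 erythroid markers were above 0 and 6 were higher without overlap (176546 to 179296 against 191909 to 218726), and the part of these cells in the result was not tested. *Col1a2*, a chain of the main fibrillar collagen, read 274 and 241 in controls and 115 and 150 in knockouts, and both knockouts were lower (-0.97 ± 0.25, adjusted p = 0.31 in limma). *Dcn* read 6214 and 5896 against 4558 and 4805, *Lum* 754 and 994 against 495 and 716, *Fstl1* 4488 and 4124 against 3474 and 3817 and *Col6a1* 1223 and 1265 against 1035 and 1108. Controls were female and knockouts male here, so sex and genotype cannot be told apart. With *Xist* as a covariate the log2 fold changes were -0.84 for *Col1a2*, 0.07 for *Dcn* and 0.51 for *Lum*. That fit took a single *Xist* slope from all arrays, so it cannot separate sex from genotype here. The effect at P0 minus that at E11.5 gave 0 members called by limma of 36, where 0% of 10979 genes were, 0 at an unadjusted p under 0.05, where 3.14% were, and a median of 0.23.

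At E9.5, 0 of 34 members were called in *Nkx2.5*-driven knockouts by limma, where 0.495% of 11713 genes were, and 0 had an unadjusted p under 0.05, where 4.75% of all genes did. The median was -0.01, 16 members were above 0 and 8 did not overlap, where 29.8% of all genes did not. The largest without overlap were small. *Col1a2* read 77.0 and 74.0 against 89.8 and 90.3, *Fstl1* 2376 and 2438 against 2138 and 1962, and *Col6a2* 180 and 193 against 154 and 166. *Bgn* read 934 and 964 against 1084 and 997, and *Timp2* 1201 and 1232 against 1041 and 1192. None of these 5 exceeded 0.25 on the log2 scale, and each had an adjusted p of 1.0 in limma.

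At E11.5, 0 of 35 members were called by limma in *Nkx2.5*-driven knockouts, where 0.490% of 11827 genes were. At an unadjusted p under 0.05, 2 members were higher, *Mmp2* and *Col6a2*, where 8.50% of all genes passed in either direction. A second *Col6a2* probe above the median gave a log2 difference of 0.01, against 0.49 for the brightest. Only *Vcan* did not overlap (547, 663 and 640 in controls, 496, 470 and 418 in knockouts, -0.42 ± 0.22, adjusted p = 0.65 in limma), where 12.7% of all genes did not overlap. The other *Vcan* probes above the median did not share this fall, with log2 differences of 0.24, 0.05, -0.05 and 0.02. The median of the members was 0.10, against -0.02 over all genes, and 23 were above 0 (65.7%, against 46.1% of all genes). Of 7 erythroid markers 6 were above 0 (median 0.80) and 0 were higher without overlap. Fibroblast markers had 3 of 5 above 0 and epicardial markers 2 of 4. In each list 1 was higher without overlap (*Tcf21* 0.61, *Aldh1a2* 0.50), and the epicardial *Tbx18* was at -1.15. Of 9 cardiac myocyte markers 1 was above 0. The part of these cells in the result was not tested. With the replicate number as a block, *Mmp2* was called (2634, 1436 and 2447 against 3318, 2541 and 3652, 0.58 ± 0.12, adjusted p = 0.0099 in limma, against 0.32 without the block), where 4.13% of all genes were called. Its groups overlapped. It was 1 of 9 members higher in each of the 3 numbered pairs, where 16.4% of all genes were, with *Col1a1*, *Col1a2*, *Col6a2*, *Col14a1*, *Dcn*, *Lox*, *Tgfb3* and *Pdgfra*. Another 4 (*Vcan*, *Timp2*, *Fstl1* and *Col5a2*) were lower in each, where 21.6% of all genes were. *Col1a1* read 715, 479 and 876 against 1146, 712 and 2522, with log2 differences of 0.68, 0.57 and 1.53 within the pairs. *Tgfb1* read 141, 141 and 145 against 140, 161 and 403, so that its difference lay almost wholly in the pair numbered 3 (-0.01, 0.19 and 1.47).

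Differences between the 2 drivers and the 2 ages gave no member call. For E11.5 minus E9.5 in *Nkx2.5* hearts 0 of 33 members were called by limma, where 0.0180% of 11101 genes were, and 1 had an unadjusted p under 0.05, where 4.79% did. For *Nkx2.5* minus *αMHC* at E11.5 0 of 35 were called by limma, where 0.0791% of 11383 genes were, and 2 had an unadjusted p under 0.05, where 4.28% did. The medians of the members were 0.10 and 0.18.

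The knockout effects stood on levels that differed between the ages. The E9.5 hearts carried *Nkx2.5::Cre* and the P0 and 6-week hearts *αMHC::Cre*, and the authors normalized each comparison separately. Age thus cannot be told apart from processing in these levels, nor from driver between E9.5 and P0. After quantile normalization over all arrays, and with no test since ages lie in separate comparisons, 20 of 37 members were highest in P0 controls, where 15.9% of the 13544 genes tested in any comparison were. In both 6-week controls 28 members were lower than in both P0 controls, where 33.3% of these genes were. Elastin had the widest gap, with a mean log2 level of 6.53 at E9.5, 12.12 at P0 and 8.67 at 6 weeks. *Col1a1* went from 8.19 at E9.5 to 11.19 at P0 and 8.66 at 6 weeks, and *Col3a1* from 7.29 to 11.01 and 8.65. Fibronectin ran the other way before birth, from 12.51 at E9.5 to 10.41 at P0 and 7.50 at 6 weeks, and *Tnc* from 10.69 to 9.09 and 6.25. *Dcn*, *Col8a1* and *Tgfb1* were the members higher in both 6-week controls than in both P0 controls, where 33.7% of all genes were.

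Of the 28 members that were lower at 6 weeks than at P0 in controls, 24 had both 6-week knockouts above both 6-week controls. Among all genes tested at 6 weeks 19.6% did so. The 28 were picked by low 6-week controls, which were also the reference for the 24, so that count is tilted upward. No share over all genes picked in the same way is given for this count or the next. The 6-week knockouts nevertheless stayed below both P0 controls in 21 of the 28. At least 1 knockout reached the P0 range or above for the other 7 (*Col4a1*, *Col4a2*, *Comp*, *Bgn*, *Timp1*, *Timp2* and *Tgfb2*). *Timp1* was 9.97 at P0 and 8.68 at 6 weeks in controls, and 10.23 in 6-week knockouts.

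**Figure D5:**
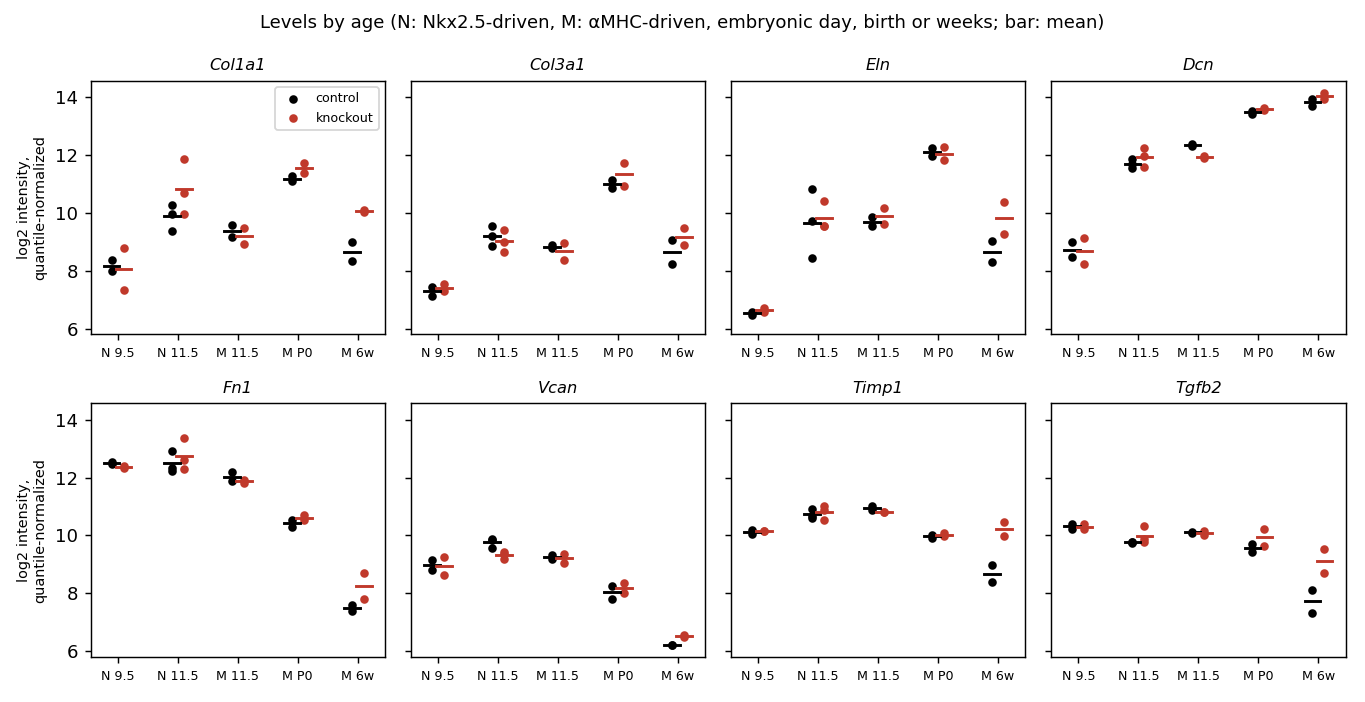
Quantile-normalized log2 intensity of 8 members in each control (black) and knockout (red) array at the 5 stages, with bars for group means. *Col1a1*, *Col3a1* and *Eln* peak at P0, *Fn1* and *Vcan* are lowest at 6 weeks, and the red points of *Timp1* and *Tgfb2* leave the black ones at 6 weeks.

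Of the members, 23 had more than 1 probe, and 18 had more than 1 probe above the median at 6 weeks. In 14 of these 18 the probes had the same sign, though some lay near 0, such as the second *Col6a2* probe (0.07). In *Eln*, *Fn1*, *Mmp14* and *Dcn* a second probe gave a log2 difference below 0 (-0.01, -0.07, -0.18 and -0.14), while both probes of *Timp1*, *Col8a1* (1.64 and 1.77), *Ccn2* (1.94 and 1.84) and *Col14a1* (1.18 and 0.53) were above 0.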

How the data were processed

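Heart total RNA was hybridised to MouseWG-6 v2.0 BeadArrays (Illumina). The deposited values are probe intensities, which the authors normalized by cubic spline, and array medians show that this was done within each comparison. The 22 columns of a non-normalized table carry numbers that match no sample and were not used. Intensities were taken to log2 without further normalization. Of 45281 probes, 34885 name 1 gene in the platform annotation, 18 several and 10378 none. Each gene was represented by its brightest probe and tested where this lay above the median probe of the arrays concerned. R 4.3.3 with limma 3.58.1 and statmod 1.5.0 fitted a mean for each of the 10 groups over 22 arrays, with 1 array weight per comparison (0.533 to 1.90, 12 residual degrees of freedom), empirical Bayes moderation with trend and Benjamini-Hochberg adjustment over all genes of a comparison at 0.05. The fit was tested on simulated data. Alternatives were median scaling, quantile normalization, an offset of 50, each comparison alone, equal weights, no filter, the mean of a gene's probes, a replicate block, *Xist* as a covariate and each array left out.

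Same-numbered arrays deviated together in *Nkx2.5* hearts at E11.5 (correlations 0.438, 0.613 and 0.520), so the numbers were taken as pairs there. The members and lists were chosen with earlier results of these data known. Array values are given for members past the threshold and for up to 5 members per comparison with the largest change without overlap. The other values at 6 weeks were chosen after they had been seen.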

Additional observations from a re-analysis of the deposited data

Results flagged for a closer look

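The effect of knockout on *Timp1* in *αMHC* hearts differed between 6 weeks and P0 by 1.48 on the log2 scale (SE 0.29, adjusted p = 0.042 in limma), which singled it out among the 35 members tested for that difference. At P0 the groups overlapped, and at 6 weeks both knockouts were above both controls. The 95% interval of the difference was 0.87 to 2.09. Each number joined arrays of 1 sex at 6 weeks, while at P0 *Xist* differed between the groups by -1.52 on the log2 scale, with overlap. Each of the 4 groups compared held 2 arrays, and the call was lost when any 1 of 6 of the 8 arrays was left out.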

How the results depend on the processing

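At 6 weeks the members' median log2 fold change of 0.74 stayed positive in all alternatives run, from 0.58 to 0.90 when 1 array was left out. The female arrays alone gave 0.32, an alternative chosen after seeing the data. The 4 members called higher became 0 when the comparison was fitted alone, 11 with equal weights and 13 with the replicate block (all genes higher: 84, 0, 290 and 252), and 0 to 12 when 1 array was left out. With the replicate block 1 member was called in *Nkx2.5* hearts at E11.5, in place of 0, where the calls over all genes went from 58 to 489 (4.13%). At 6 weeks no label says what a shared number stands for, but *Xist* put same-numbered arrays in 1 sex, so the block there also matched sex. Deviations of same-numbered arrays correlated at 0.352 there, and at E9.5, in *αMHC* hearts at E11.5 and at P0 at 0.355, 0.024 and 0.216. The block changed no other call count of the members by over 1.5 times. For 6 weeks minus P0, the 1 member called became 0 with an offset of 50 (*Timp1* adjusted p = 0.050 in limma) and when fitted alone, and 0 to 6 when 1 array was left out. In *αMHC* hearts at E11.5 the median of -0.06 became -0.13 with *Xist* as a covariate. *Lum* and *Dcn* were 0.51 and 0.07 in that fit, which cannot separate sex from genotype there. The median ranged from -0.11 to 0.02 with 1 array left out. At E9.5 it ranged from -0.04 to 0.04. Where an array was left out, a lone array was taken to vary like the others. In all, 678 values were recomputed. Among counts and medians 20 moved and 327 stayed the same. Among values of named members 2 changed sign, 19 were weaker, 11 stronger and 299 the same. The cause of these shifts was not tested. Signal over background limits *Postn*, *Ltbp2*, *Tnc* and *Vcan*, which lay near the median probe at 6 weeks.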
